A study of Rattus norvegicus with 14 samples.

Results

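The baseline methylation signal of the hippocampus was described from the 5 control libraries (CTRL) among the 14 Methyl-Seq libraries of the study, over all 310070 regions of the deposited table. The libraries were chosen by their CTRL label alone, and no tag of a treated animal was counted, although all 14 libraries had set which regions are listed and how long they are. CTRL animals were male Wistar rats of 300 to 350 g on a standard diet, which received methyl scopolamine (1 mg/kg) and saline (0.9%) without pilocarpine and were observed for 84 days. Each animal gave 1 library from 500 ng of hippocampal DNA, sheared to 200 to 300 bp, bound to beads that carry a methyl-CpG binding protein, and then read from one end for 36 cycles. The labels of the libraries carry 3 different FC prefixes, read here as 3 flow cells although the labels do not spell this out. CTRL replicates 2, 3 and 4 were together on the largest of them.

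In mammals, DNA methylation sits mainly on the cytosine of CpG dinucleotides, is laid down by DNA methyltransferases and is read by methyl-CpG binding proteins. Capture with such a protein enriches fragments that carry several methylated CpGs, so the number of tags in a region depends on how many CpGs it holds as well as on how many of these are methylated. A male rat has a single X chromosome, which therefore enters the capture at a lower copy number than the autosomes.

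The listed regions are not the whole of the methylated genome. The authors called regions wherever any pair of the 14 libraries differed and merged them, so that a stretch with the same signal in every animal is absent from the table, whereas a region listed because of other animals is present even when the controls hold few tags there. The label of a methylated region was therefore read from the tags. Of the 310070 regions, 474 (0.153%) held no tag in any of the 5 CTRL libraries, and 57592 (18.6%) held none in at least 1 of them. A region at 0 tags in all controls lies below 3 tags in 46648838, the floor that counting allows, and is not shown to be unmethylated. These regions without tags were short, with a median length of 330 bp against 569 bp over all regions.

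The tags counted in regions were 10559592, 9614338, 8478079, 8411986 and 9584843 in CTRL replicates 1 to 5. Any 2 of these libraries differed by more than sampling noise, with a chi-square per degree of freedom from 1.71 (replicates 4 and 5) to 3.21 (replicates 1 and 3), so each was counted as 1 animal. Tag densities are given as normalised tags per kb, that is tags scaled to 10000000 per library after TMM scaling and divided by the region length. Mean density was first taken over regions within each animal, and the error is the SD over the 5 animals. The depth limits short regions most, where a single tag before TMM scaling stood for 0.947 to 1.19 normalised tags.

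Mean tag density over all regions was 34.1 ± 1.48 normalised tags per kb (SD, n = 5). The animals gave 32.3, 34.6, 36.2, 34.0 and 33.3 normalised tags per kb from replicate 1 to 5. This order of the animals depended on the scaling, since with scaling to total tags replicate 1 was the highest at 35.6 and replicate 3 the lowest at 33.1 normalised tags per kb. Ratios between classes of regions within an animal do not depend on the scaling, and the tested comparisons of classes below rest on such ratios. Densities set side by side between animals below are TMM-scaled values, and their levels and order can change with the scaling.

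Density was unevenly distributed over the regions. The median region had 17.8 normalised tags per kb, with quartiles at 9.92 and 41.5, and 21874 regions (7.06%) exceeded 100. The densest 1% of regions, 3100 in number, held 13.4% of all control tags in 2.24% of the listed bases. The densest 10% held 52.7% of the tags in 18.2% of the bases.

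**Figure D1:**
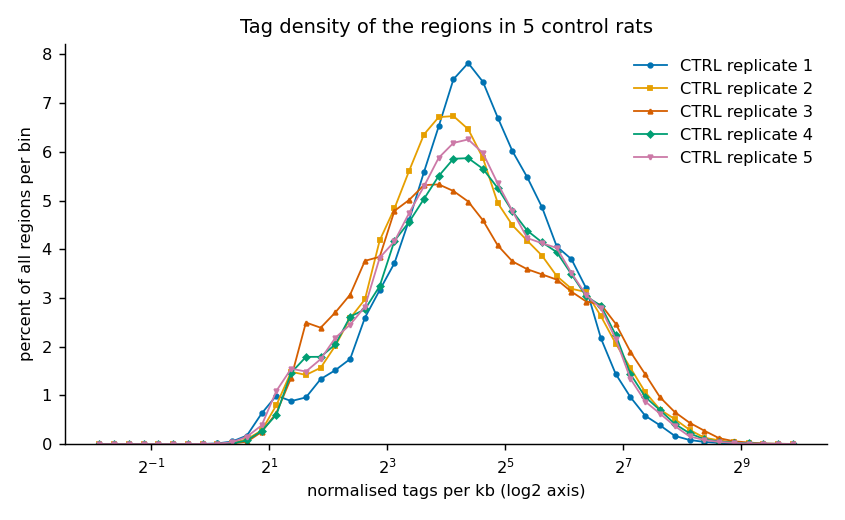
Distribution of tag density over the 310070 regions in each CTRL animal. The x axis gives normalised tags per kb on a log2 axis, the y axis the percent of all regions in each bin, and each line is 1 animal (regions with 0 tags in that animal are not drawn). The 25th percentile was 11.3 in replicate 1 and 6.61 in replicate 3, whereas the 99th percentile was 165 and 253.

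The 5 animals had distributions of different width around an upper quartile that was shared after TMM scaling. The 25th percentile of density ranged from 6.61 (replicate 3) to 11.3 (replicate 1) normalised tags per kb. At the 75th percentile the animals lay between 40.9 and 43.4 normalised tags per kb. At the 99th percentile the extreme animals were exchanged, with 165 in replicate 1 as the lowest and 253 in replicate 3 as the highest. Regions below the median density took 10.1% of the tags of replicate 1, 7.58% of replicate 2, 5.67% of replicate 3, 6.88% of replicate 4 and 7.47% of replicate 5. Replicate 1 thus had the largest share of its tags in weak regions and replicate 3 the smallest. Replicate 1 had the most tags and, like replicate 5, was the only CTRL library of its flow cell, and the part of either in this difference was not tested.

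By chromosome, mean density differed little among the 20 autosomes and was higher on chromosome X. The autosomes together had 32.9 ± 1.42 normalised tags per kb (SD, n = 5). Their means ranged from 28.6 ± 1.35 on chromosome 10 to 37.2 ± 2.15 on chromosome 20. Chromosome 10 was the lowest and chromosome 20 the highest autosome in 5 of 5 animals. The SD between autosome means was 2.05 normalised tags per kb, against a median SD between animals on the same autosome of 1.41. The latter includes shifts in level that an animal shares over its autosomes. As log2 ratios to all autosomes of the same animal, chromosome 10 lay at -0.20 ± 0.03 and chromosome 20 at 0.18 ± 0.02 (SD, n = 5). The largest SD of these ratios on an autosome was 0.035 (chromosome 12).

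The order of the autosomes was closely shared by the animals. Between pairs of animals, the Spearman correlation of the 20 autosome densities lay between 0.946 and 0.994, as a description over chromosomes that share their libraries. Replicate 3 had the highest density on 20 of 20 autosomes and replicate 1 the lowest on 17 of 20 after TMM scaling, an order that scaling to total tags turns over for all regions together. Neighbours in the order of autosomes often lay closer than their spread, for example chromosome 2 (34.9 ± 1.5) and chromosome 16 (34.9 ± 1.65). Denser autosomes were those with longer regions (Spearman 0.763 between mean density and median region length over 20 autosomes, whose median lengths ran from 541 to 605 bp). How many regions an autosome carried went less closely with its density (Spearman -0.32). The number of regions ranged from 87.7 per Mb on chromosome 2 to 224 per Mb on chromosome 12, while the densities of these chromosomes were 34.9 ± 1.5 and 32.5 ± 2.04 normalised tags per kb.

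**Figure D2:**
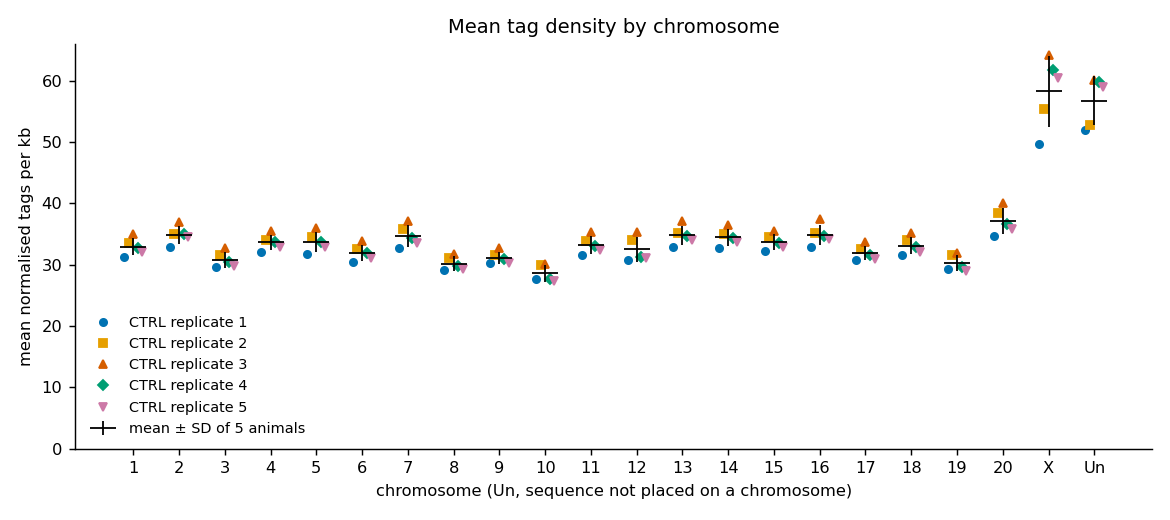
Mean normalised tags per kb (y axis, from 0) over the regions of each chromosome (x axis). Points are the 5 CTRL animals and black bars the mean ± SD. Chromosome X (58.3 ± 5.78) and unplaced sequence (56.7 ± 4.01) lie above the 20 autosomes, which range from 28.6 to 37.2.

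Chromosome X had 58.3 ± 5.78 normalised tags per kb over its 6735 regions (SD, n = 5). The animals gave 49.7, 55.4, 64.1, 61.8 and 60.4 from replicate 1 to 5, and in 5 of 5 animals chromosome X lay above every autosome. The log2 ratio of chromosome X to the autosomes was 0.82 ± 0.12 (SD, n = 5), higher than 0 in 5 of 5 animals (exact permutation test by sign flips, two-sided, p = 0.0625). This p is the smallest that 5 animals allow, so the test cannot reach 0.05 here or in the other 5 ratios of this family. All 6 ratios gave this p, so Benjamini-Hochberg adjustment over them leaves it at 0.0625. A stricter adjustment would raise it.

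Regions on chromosome X were longer than on the autosomes, with a median of 740 against 564 bp. Among regions of 400 to 800 bp the log2 ratio was 0.66 ± 0.12 (SD, n = 5). In regions of 301 to 500 bp, chromosome X had 20.7 ± 0.67 and the autosomes 13.7 ± 1.27 normalised tags per kb. Above 2000 bp the values were 138 ± 16.1 and 128 ± 13.4 normalised tags per kb, which was a smaller difference in proportion to the level. Among the 156100 regions at or above the 50th centile of control tags, the log2 ratio was 0.44 ± 0.10 (SD, n = 5), whereas medians over all regions gave 1.31 ± 0.26. The listed regions of chromosome X covered 5593807 bp, 3.48% of its length, and took 4.27% ± 0.27 of all control tags. On the autosomes the listed share of the length ran from 5.76% (chromosome 2) to 15.2% (chromosome 12). Chromosome X carried 41.9 regions per Mb, against 87.7 to 224 per Mb on the autosomes. The part of this sparser listing in the ratio was not tested.

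Sequence not placed on a chromosome had 56.7 ± 4.01 normalised tags per kb over 8697 regions (SD, n = 5). Its log2 ratio to the autosomes was 0.79 ± 0.10 (5 of 5 animals above 0; exact permutation test, two-sided, p = 0.0625). The median over regions gave a smaller log2 ratio of 0.37 ± 0.10. Among regions of 400 to 800 bp the ratio of the means was 0.0003 ± 0.09 with 2 of 5 animals above 0 (exact permutation test, two-sided, p = 1). Above 750 bp unplaced sequence lay higher in each length class. At 1501 to 2000 bp, unplaced sequence had 164 ± 15 normalised tags per kb against 102 ± 11.2 on the autosomes.

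The mitochondrial genome carried 1 region, chrM:1-2382 in RN4. Its density was 83.2, 137, 169, 45.1 and 94.2 normalised tags per kb in CTRL replicates 1 to 5, from 231, 311, 312, 89 and 218 tags. Replicate 4 was 3.75-fold below replicate 3, and the SD over the animals was 45.7% of the mean. The amount of mitochondrial DNA in each tissue sample was not measured.

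Region length went with the largest differences among the classes described here. Mean density was 11.5 ± 2.03 normalised tags per kb in the 28714 regions of 201 to 300 bp and 13.9 ± 1.23 in the 96629 regions of 301 to 500 bp. It was 27.8 ± 0.51 at 501 to 750 bp, 55.4 ± 5.03 at 751 to 1000 bp and 79.1 ± 7.73 at 1001 to 1500 bp. Regions of 2001 to 3000 bp had 122 ± 12.6, and the 177 regions over 5000 bp had 194 ± 17.5 normalised tags per kb. Only the 1475 regions of at most 200 bp stood outside this rise, with 14.5 ± 1.41 normalised tags per kb, above the class that follows.

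Regions over 2000 bp had 133 ± 12.6 and regions of at most 300 bp had 11.6 ± 1.93 normalised tags per kb. The log2 ratio was 3.53 ± 0.36 (SD, n = 5), with 2.98, 3.41, 3.95, 3.64 and 3.66 in replicates 1 to 5 (exact permutation test by sign flips, two-sided, p = 0.0625). Among regions at or above the 50th centile of control tags the ratio was 1.29 ± 0.10, and of the 30189 short regions 580 were left there, since a short region needs a high density to reach that count. Region limits were set by the peak calling on all 14 libraries, the 5 controls among them, so length and density were drawn from the same reads. Over all regions, the Spearman correlation of length and mean density was 0.678, as a description.

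**Figure D3:**
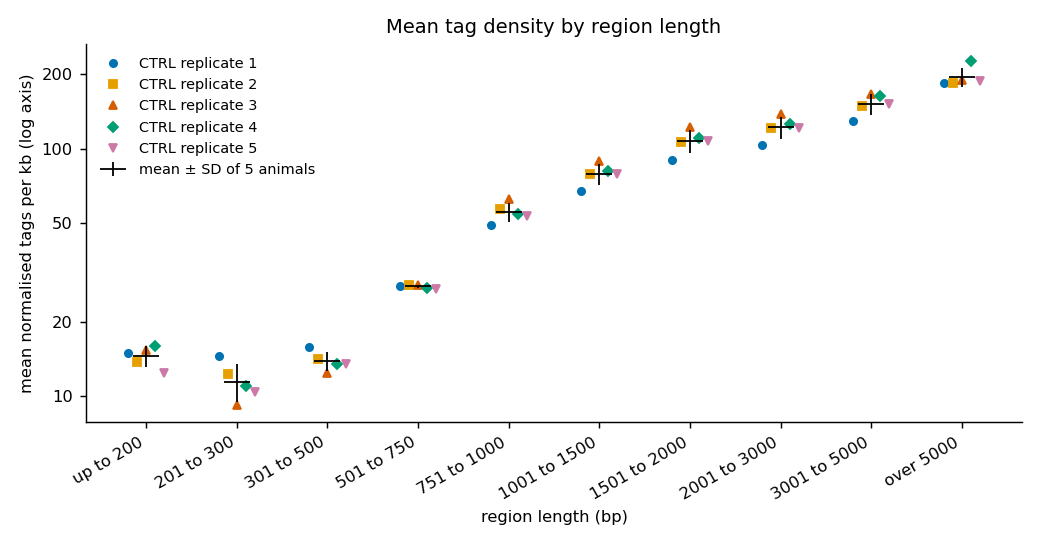
Mean normalised tags per kb (y axis, log axis) in 10 classes of region length (x axis, bp). Points are the 5 CTRL animals and black bars the mean ± SD. Density rises from 11.5 at 201 to 300 bp to 194 over 5000 bp. In these TMM-scaled values replicate 1 is the highest animal at 301 to 500 bp and the lowest from 751 bp upwards. Its place in the longer classes can change with the scaling.

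The animals changed order along the length classes. At 301 to 500 bp replicate 1 was the highest with 15.8 and replicate 3 the lowest with 12.5 normalised tags per kb. At 1001 to 1500 bp replicate 1 was the lowest with 67.6 and replicate 3 the highest with 89.3. After TMM scaling the animals met at 501 to 750 bp, where all 5 lay between 27.2 and 28.3. The place of this crossing depends on the scaling. Regions of at most 500 bp held 8.08% of the tags of replicate 1, 6.5% of replicate 2, 5.18% of replicate 3, 6.11% of replicate 4 and 6.22% of replicate 5. No scaling to a single factor per animal removes a difference of this kind, because the shares of tags do not depend on it.

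By position, density was highest at the start of the autosomes, which was taken as base 1 of RN4. The first Mb had 55.4 ± 4.18 and the second 44.7 ± 2.89 normalised tags per kb (SD, n = 5). Regions more than 10 Mb from both ends had 32.6 ± 1.33. The log2 ratio of the first 2 Mb to these inner regions was 0.63 ± 0.06, higher than 0 in 5 of 5 animals (exact permutation test by sign flips, two-sided, p = 0.0625). Among regions of 400 to 800 bp it was 0.34 ± 0.05.

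The first 2 Mb lay above the inner regions in all 5 animals on 17 of the 20 autosomes. Chromosome 18 had the highest first 2 Mb, with 82.5 ± 9.60 normalised tags per kb against 33.0 ± 1.37 inside. Chromosomes 5 (78.6 ± 8.36) and 2 (75.4 ± 5.48) followed. On chromosomes 15, 16 and 17 the first 2 Mb lay below the inner regions in all 5 animals. Chromosome 17 had 21.9 ± 0.54 against 31.7 ± 1.23, and chromosome 16 had 23.1 ± 0.27 against 36.9 ± 1.85 normalised tags per kb.

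The last 2 Mb, counted from the last listed base of each autosome, differed little from the inner regions, with 34.4 ± 1.85 normalised tags per kb. The log2 ratio was 0.08 ± 0.02 (SD, n = 5; 5 of 5 animals above 0; exact permutation test, two-sided, p = 0.0625). The signal was confined to the outermost Mb in these bins, since the last Mb had 40.9 ± 2.61 and the Mb before it 29.9 ± 1.39 normalised tags per kb. Among regions of 400 to 800 bp the ratio of the last 2 Mb was -0.0037 ± 0.017, with 3 of 5 animals above 0 (exact permutation test, two-sided, p = 0.625). With 5 Mb in place of 2 Mb the ratio was 0.0076 ± 0.027 (3 of 5 animals above 0; exact permutation test, two-sided, p = 0.5625). Chromosomes disagreed in direction. On 11 autosomes the last 2 Mb lay above the inner regions in all 5 animals, with chromosome 18 the highest at 72.8 ± 6.44, and on 5 autosomes (1, 5, 7, 13 and 19) they lay below in all 5 animals.

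**Figure D4:**
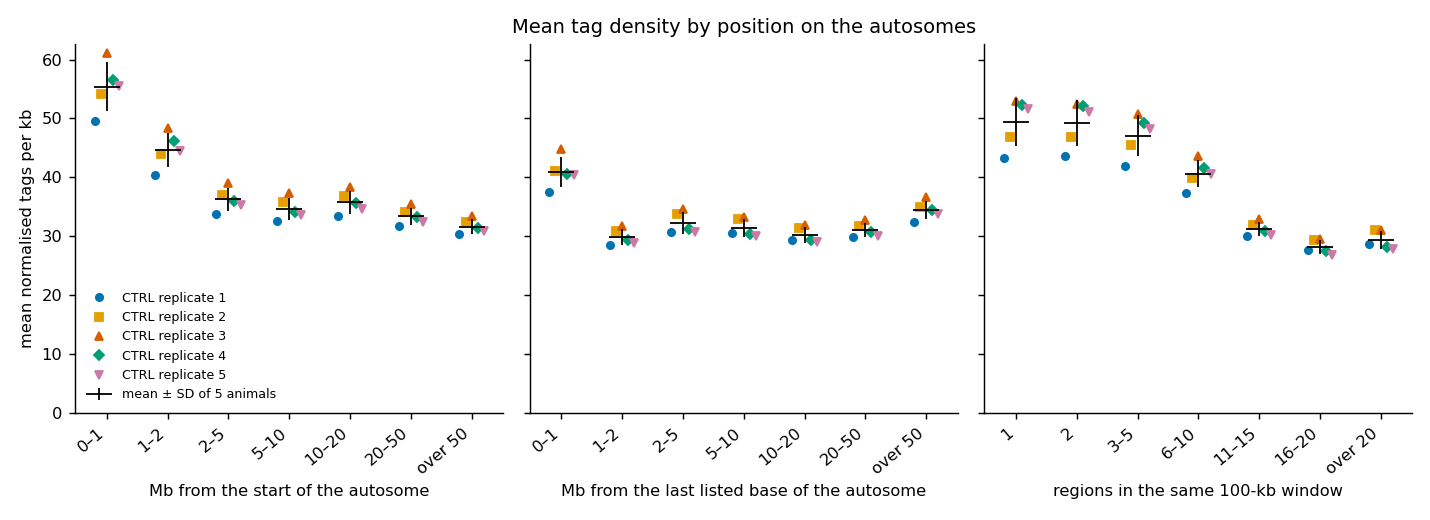
Mean normalised tags per kb of autosomal regions (y axis, from 0) by distance from the start of the autosome, by distance from its last listed base, and by the number of regions in the same 100-kb window. Points are the 5 CTRL animals and black bars the mean ± SD. Density is 55.4 in the first Mb and 40.9 in the last Mb, and falls from 49.4 for regions alone in their window to 29.3 with over 20 in it.

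Regions that stood alone had more tags per kb than regions in crowded stretches. The 727 autosomal regions alone in their 100-kb window had 49.4 ± 4.14 normalised tags per kb, whereas the 220205 regions in windows with over 10 had 29.5 ± 1.38 (SD, n = 5). The log2 ratio of crowded to lone regions was -0.74 ± 0.14, below 0 in 5 of 5 animals (exact permutation test by sign flips, two-sided, p = 0.0625). It was -0.51 ± 0.08 among regions of 400 to 800 bp. At 301 to 500 bp the classes overlapped between animals, with 13.8 ± 1.45 in lone and 13.6 ± 1.27 in crowded regions. At 501 to 750 bp they did not, with 44.4 ± 2.64 and 26.1 ± 0.66 normalised tags per kb.

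On the scale of 1-Mb windows of the autosomes, the 2551 windows held a median of 99 regions, and a median of 6.21% of their bases was listed. The window with the most listed bases was chr5:168000001-169000000, with 319 regions over 249585 bp (24.96% of the window). Windows on chromosome 20 (5000001 to 6000000) and chromosome 7 (135000001 to 136000000) were close to it, each with 24.7%. The tags of these windows divided by their listed bases gave 53.7 ± 5.46, 51.1 ± 7.19 and 48.2 ± 3.22 normalised tags per kb. The window with the fewest was chr4:167000001-168000000, with 16 regions over 10057 bp (1.01%), at 44.8 ± 5.59 normalised tags per kb. Windows on chromosome 14 (91000001 to 92000000) and chromosome 11 (61000001 to 62000000) had 47.6 ± 1.44 and 17.8 ± 0.75. In these named windows, those with the most listed bases had higher means of tags per listed base than those with the fewest. The windows on chromosomes 7 and 14 overlapped between animals, and that on chromosome 14 was the higher in replicates 1, 4 and 5. Over all 2551 windows the Spearman correlation of listed bases with tags per listed base was -0.488, as a description, so the named windows do not stand for the rest.

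Single regions far exceeded the class means. The densest region of at least 500 bp was taken on each of chromosomes 1 to 20 and X, which leaves out unplaced sequence. The highest of these was chr2:61089012-61090793 (rank 2 of all regions by density), with 2360, 2070, 1862, 2198 and 2245 tags in CTRL replicates 1 to 5 and 1298 ± 133 normalised tags per kb (SD, n = 5). The densest region of chromosome 4, chr4:182542639-182547989, was next among these chromosomes (rank 7 of all regions), with 1093 ± 306 normalised tags per kb. It had 1334 and 1500 normalised tags per kb in replicates 2 and 3 and between 828 and 964 in the other 3 animals. The densest regions of chromosome 10 (chr10:29081856-29082875), chromosome 1 (chr1:191883878-191885553) and chromosome X (chrX:22935667-22937176) had 1063 ± 128, 1014 ± 118 and 997 ± 114 normalised tags per kb. Over chromosomes 1 to 20 and X, the densest region of each ranged from 457 (chromosome 11) to 1298 normalised tags per kb, with a median of 684. The SD between animals in these 21 regions was 9.91% to 28% of the mean, and below 15% in 15 of them. The authors had removed duplicate reads, and how far this limits the tags of the densest regions was not tested.

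The regions at the extremes of length and tag number were dense when set against all regions. The longest region, chr17:49666823-49690377 with 23554 bp, had 119 ± 18.1 normalised tags per kb, above the 95th percentile of all regions (115.5). It lay below the mean of the regions over 5000 bp (194 ± 17.5). The region with the most control tags, chrUn:23397141-23408353 on unplaced sequence, held 18095, 12881, 9316, 15877 and 9754 tags and 1253 ± 311 normalised tags per kb, rank 5 of all regions by density. The region at the median density, chr2:50763508-50764205 with 697 bp, held 14, 7, 5, 18 and 14 tags, which gave 17.8 ± 8.83 normalised tags per kb. This region rested on few tags, and its SD was 49.7% of its mean. The median count over all regions was also low, from 7 tags in replicate 3 to 13 in replicate 1. The SD of this region does not stand for the others. Its chi-square per degree of freedom was 2.58, above the median of 1.86 over the 156100 regions tested between animals.

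The 5 animals differed beyond counting noise in many regions. Of the 156100 regions with at least 46 control tags in all, the 50th centile, 40653 (26.0%) had counts that differed between the 5 animals (chi-square test of the counts against the scaled library sizes, adjusted p below 0.05 by Benjamini-Hochberg). The regions had been listed for a difference between some pair of the 14 libraries, pairs of controls included. This share therefore describes the listed regions and is not a rate of variation for the control hippocampus. The same limit holds for the dispersion, the fold differences and the flow cell comparison below. Without replicate 1 the count was 23754 regions, more than 1.5 times fewer. The share was 25.5% on the autosomes, 30.5% on chromosome X and 37.0% on unplaced sequence, where the tested regions held a median of 142, 269 and 226 control tags, so that depth differed between these classes too. It rose with length, from 8.45% of the tested regions of 201 to 300 bp to 97.7% of those over 5000 bp. The median number of control tags rose with it, from 58 to 4371, and length and depth cannot be told apart in this share.

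The size of the spread varied less between classes. The common dispersion between the animals was 0.0333, a biological coefficient of variation of 18.3% that also contains the technical spread between libraries. It was 18.5% on the autosomes, 15.4% on chromosome X and 16.9% on unplaced sequence. Among autosomes it ranged from 17.6% on chromosome 14 to 20.0% on chromosome 12. By length it was 20.3% at 301 to 500 bp and 16.5% at 1001 to 2000 bp. Between pairs of animals, normalised log2 CPM correlated with a mean Pearson r of 0.916 (10 pairs, from 0.900 to 0.929), over regions that are not independent replicates.

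Large differences between animals were rare among the listed regions. Among the 53494 regions with a mean of at least 50 normalised tags, the highest animal exceeded the lowest by a median of 1.55-fold, and by at least 2-fold in 4985 (9.32%). A difference of at least 4-fold occurred in 109 (0.204%). None of these 109 lay among the 2734 regions of chromosome X, and 105 lay among the 48248 on the autosomes (0.218%). By counting alone, 0 regions on chromosome X allow a share of up to 0.11%. That limit takes regions as independent, which regions of the same 5 animals are not. Chromosome 16 also had none, among 1890 regions, and chromosome 12 had 8 among 1680. Replicate 3 was the highest animal in 46 of the 109, and replicate 5 in 6.

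The 5 regions with the largest spread were chosen by the chi-square value and are therefore given without a test. In chr1:15324164-15329483, replicate 4 held 3329 tags and the other animals 327, 404, 333 and 297 (replicates 1, 2, 3 and 5). Replicate 4 thus had 755 normalised tags per kb against 52.7 to 80.8 in the other 4. The listed regions nearest to it, 3117 bp before and 4171 bp after, held at most 11 tags in any animal.

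On chromosome 2, a pair of regions 2404 bp apart moved together. The first, chr2:252843235-252847715, had 257 and 485 normalised tags per kb in replicates 1 and 2 and 41.5, 31.2 and 41.3 in replicates 3, 4 and 5. The second, chr2:252850119-252864200, had 203 and 388 in replicates 1 and 2 and 35.8, 30.3 and 33.8 in the others. In both, replicates 1 and 2 lay above the other 3 animals without overlap. The next listed region on that side, 33565 bp further on, had 84.3, 133, 140, 75 and 79.3 normalised tags per kb and did not show that division.

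In chr15:58344262-58348046, replicates 2 and 3 had 1214 and 1329 normalised tags per kb and the other animals 155 to 181. The region on either side, 16132 bp before and 6637 bp after, held at most 24 tags in any animal. The last of the 5, chrUn:426370-437409 on unplaced sequence, differed by 2.09-fold between replicates 4 (1605) and 5 (768) and entered through its depth, with 8083 to 16109 tags per animal. Genes at these positions were not analysed here.

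**Figure D5:**
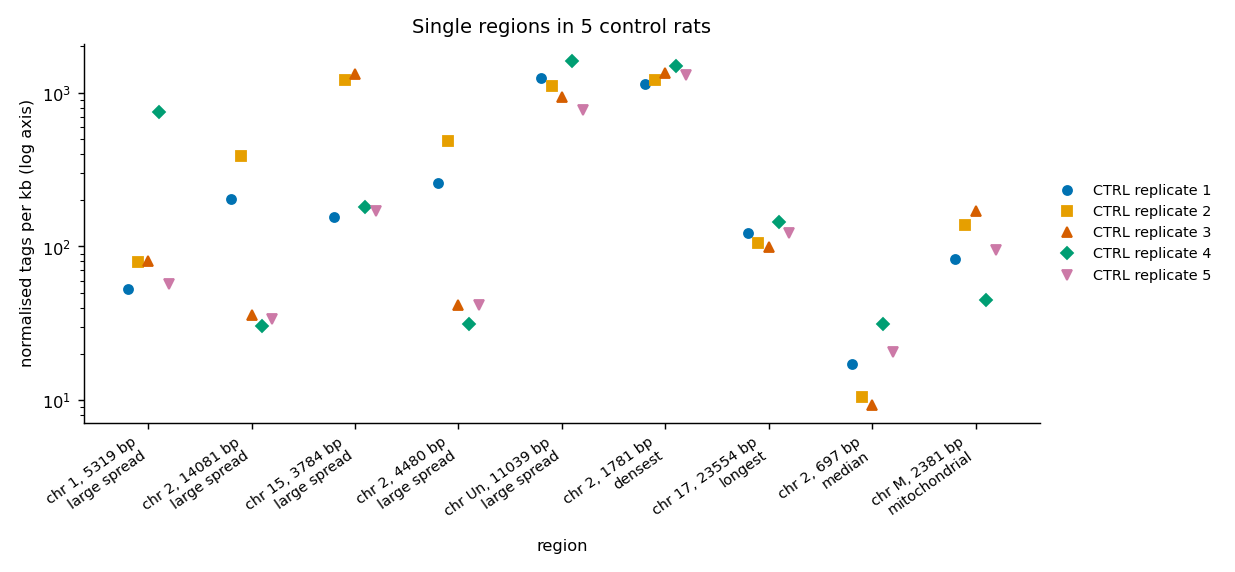
Normalised tags per kb (y axis, log axis) of 9 single regions in each CTRL animal (points). The 5 regions with the largest spread stand on the left, followed by the densest, the longest, the median and the mitochondrial region. Replicate 4 stands alone in the region of chromosome 1 (755 against 52.7 to 80.8), and replicates 2 and 3 in that of chromosome 15 (1214 and 1329 against 155 to 181).

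Because 3 CTRL libraries shared the largest flow cell, these were compared with the other 2. With edgeR's quasi-likelihood test, 3770 of 156100 regions (2.42%) had an unadjusted p below 0.01, 2772 of them (1.78%) with more tags on the largest flow cell and 998 with fewer. With p adjusted by Benjamini-Hochberg and a limit of 0.05, 160 regions (0.102%) remained. The direction of the split depended on the scaling, since with total tags 1029 regions were higher and 1544 lower. The share at p below 0.01 was 2.47% on the autosomes, 1.36% on chromosome X and 1.74% on unplaced sequence. Leaving out any of the 5 animals moved the count by more than 1.5 times, to 1932, 1979, 1802, 8249 and 2418 without replicates 1 to 5. Flow cell and animal cannot be told apart in these libraries, since each animal was sequenced once.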

How the data were processed

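Methyl-Seq counts of 5 CTRL animals were used, and the other 9 libraries were not. The authors aligned reads to RN4 with BWA, removed duplicates, called regions between all pairs of libraries with MACS 1.4.0, merged them with bedtools and deposited the number of tags per region and library as whole-number counts without normalization. Replicates were not pooled. Coordinates are RN4, and length is end minus start.

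Counts were scaled with TMM (edgeR 4.0.16, R 4.3.3). Ratios were tested with exact sign-flip permutation tests over animals (32 flips, scipy), differences between animals with a chi-square test on 4 degrees of freedom, and flow cells with edgeR's quasi-likelihood test. Both latter tests used regions at or above the 50th centile of summed control tags. Log2 CPM used a prior count of 2. Scripts were tested on simulated data. DESeq2 1.42.0 served as an alternative. Intervals and floors cover counting error only.

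Named regions were the densest of at least 500 bp per chromosome, the longest, the most tagged, the median, the 5 with the largest chi-square, and the 1-Mb windows with the most and the fewest listed bases (3 each). The mitochondrial region and the neighbours of the variable regions were named after their values were seen. Members, classes and rules were chosen with earlier results of these data known. Sequences and gene positions in RN4 were not used here.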

Additional observations from a re-analysis of the deposited data

Results flagged for a closer look

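Among 75 values tested for a single animal far from the other 4 (Dixon's ratio above 0.71), 2 were found, and chance flags about 1 in 20 such groups. The density of regions over 5000 bp was 225 normalised tags per kb in CTRL replicate 4 and 184 to 190 in the other 4 animals (gap over range 0.866). This gap between animals depends on the scaling, and the ratio was computed with TMM scaling only. The region chr1:15324164-15329483 had 755 normalised tags per kb in CTRL replicate 4 and 52.7 to 80.8 in the others (gap over range 0.96), a region that had been chosen for its spread.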

How the results depend on the processing

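No paired analysis was possible because all animals belong to the 1 group CTRL, and the flow cells compared share no replicate number.

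The 6 log2 ratios kept their sign in 82 of 83 alternatives, the exception being the last 2 Mb among regions of 400 to 800 bp, at -0.0037. Many of the 83 could not have changed a sign. Another scaling leaves a ratio within an animal unchanged. All 5 animals share the sign of each main ratio, so leaving out animals cannot reverse it. A kept sign also says little in 2 of the 82, where the ratio came close to 0: unplaced sequence at 400 to 800 bp (0.0003, 2 of 5 animals above 0) and the last 5 Mb (0.0076, 3 of 5). With medians over regions, the ratio was 1.31 for chromosome X and 0.37 for unplaced sequence. It was 0.32 for the first 5 Mb and 0.33 for the last 1 Mb. With an animal left out, the ratios ranged from 0.80 to 0.86 (chromosome X), 3.42 to 3.67 (length), 0.61 to 0.65 (first 2 Mb), 0.07 to 0.09 (last 2 Mb), -0.78 to -0.71 (crowding) and 0.76 to 0.82 (unplaced sequence). With 4 animals p cannot fall below 0.125, and with the 3 of the largest flow cell not below 0.25.

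Mean density over all regions was 49.3 when tags and bases were pooled, 18.7 as a median over regions, 57.5 at or above the 50th centile and 32.5 with 36 bp added to each length, and 33.6 to 34.5 with an animal left out. The SD between autosomes was 3.41 pooled, 1.03 for medians and 2.76 at or above the 50th centile, and 1.97 to 2.15 with an animal left out. Regions differing between animals numbered 15320 on the largest flow cell alone, 23829 at an adjusted p below 0.01, and 23754 to 37511 with an animal left out. The flow cell count was 827 with DESeq2's Wald test (6 after adjustment) and 1802 to 8249 with an animal left out. The dispersion was 0.0272 with total tags, 0.0409 without a filter, 0.0277 with at least 10 tags in every control and 0.027 on the largest flow cell alone, and 0.028 to 0.0369 with an animal left out. The mean correlation was 0.934 with at least 10 tags in every control and 0.914 to 0.917 with an animal left out. Cause was not tested for any of these. Depth limits the short regions, where a few tags set the density.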
